A study of Mus musculus with 4 samples.

Results

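The 43 genes described here encode the DNA replication machinery, and they were found by gene symbol among the 23997 genes of the expression table for Lgr5+ and Lgr6+ cochlear progenitors. They cover the origin recognition complex, the licensing factors, the MCM helicase and its activators, primase and the polymerases, the sliding clamp and its loader, the single-strand binding protein RPA, Okazaki fragment joining, nucleotide supply, and *Uhrf1*, which links replication to the maintenance of DNA methylation. They were chosen by the function of their products and not by a threshold on these values, with earlier results of these data known. All 43 symbols were in the table.

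The cells were sorted by flow cytometry for EGFP from C57BL/6 mouse cochleae on postnatal day 3. The line for Lgr5+ progenitors was Lgr5-EGFP-IRES-CreERT2, and the line for Lgr6+ progenitors was Lgr6-EGFP-IRES-CreERT2. In both lines the reporter is expressed from the locus of the gene that names the population, so the sort follows the activity of that locus, and the cells of several cochleae are pooled. The labels list 2 libraries for each population, 4 in all, whereas the methods describe fractions of a shared RNA extraction as the replicates. RNA-Seq expression was given as FPKM, a fragment number scaled to transcript length and to the mapped fragments of the library, with 1 value per gene and population in which the replicates were already combined. No spread between replicates can therefore be given for any value, no test was made, and every difference stated here is a difference between these combined values.

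Chromosomal DNA is copied once in each cell cycle. In G1 the origin recognition complex, Cdc6 and Cdt1 load the MCM helicase onto origins, and geminin (*Gmnn*) binds Cdt1 afterwards and prevents a further round of loading. The kinase Cdc7, Cdc45 and the GINS complex turn the loaded MCM ring into a running helicase, after which primase, the polymerases, PCNA and its loader RFC make the new strands. In the newborn cochlea most supporting cells have left the cell cycle, and Lgr5+ and Lgr6+ cells are studied because some of them can divide and form hair cells. In these sorted, mixed preparations a smaller share of replicating cells and less RNA per cell cannot be told apart.

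Many of these genes are known targets of the E2F factors, which drive S phase genes, and the start regions of the members were therefore searched for E2F sites. RefSeq promoters on GRCm38.p6, from 250 bases before to 50 bases after the start, were at hand for 35 of the 43 genes and not for *Mcm4*, *Rfc2*, *Gins1*, *Gins2*, *Gins4*, *Prim2*, *Pole* and *Gmnn*. An E2F motif, searched as TTTGGCGC, TTTCCCGC, TTTGCCGC or TTTCGCGC on both strands, was found in 14 of the 35 promoters (40.0%) and in 704 of 27025 genes with a promoter (2.605%). The 8 members below are shown because a match lies wholly in the 160 bases before their start, and they span the origin recognition complex, licensing, the helicase, the polymerases and the clamp loader. Each sequence is printed 5′ to 3′ on the strand of the gene, ends at the base before the start, and has the E2F matches in capitals. The start is that of the RefSeq promoter entry and is not always the outermost start of the gene. For *Orc1*, *Cdc6* and *Pola1* the whole printed stretch lies inside the RefSeq gene. For *Mcm5* and *Orc3* a part of it does.
Mcm6, chr1:128359706-128359865, minus strand: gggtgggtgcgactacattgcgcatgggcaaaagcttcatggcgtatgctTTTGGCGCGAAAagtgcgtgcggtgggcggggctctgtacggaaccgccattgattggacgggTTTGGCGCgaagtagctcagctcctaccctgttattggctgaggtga
Mcm5, chr8:75109349-75109508, plus strand: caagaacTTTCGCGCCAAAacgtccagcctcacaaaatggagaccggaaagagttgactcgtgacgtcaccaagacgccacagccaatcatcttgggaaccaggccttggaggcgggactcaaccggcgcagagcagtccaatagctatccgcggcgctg
Orc1, chr4:108579294-108579453, plus strand: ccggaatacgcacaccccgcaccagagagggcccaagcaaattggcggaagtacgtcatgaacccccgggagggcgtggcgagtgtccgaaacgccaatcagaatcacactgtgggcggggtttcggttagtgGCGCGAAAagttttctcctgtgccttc
Orc3, chr4:34614943-34615102, minus strand: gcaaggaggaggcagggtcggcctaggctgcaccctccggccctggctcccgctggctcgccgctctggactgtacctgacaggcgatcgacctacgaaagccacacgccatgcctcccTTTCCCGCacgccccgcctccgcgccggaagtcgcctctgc
Cdc6, chr11:98907991-98908150, plus strand: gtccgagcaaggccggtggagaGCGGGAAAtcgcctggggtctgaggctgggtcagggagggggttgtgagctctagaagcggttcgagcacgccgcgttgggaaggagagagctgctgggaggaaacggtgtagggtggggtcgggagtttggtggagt
Gins3, chr8:95633399-95633558, plus strand: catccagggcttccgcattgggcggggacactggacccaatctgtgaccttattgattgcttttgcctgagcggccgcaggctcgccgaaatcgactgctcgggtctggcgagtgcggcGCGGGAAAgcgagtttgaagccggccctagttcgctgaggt
Pola1, chrX:93632156-93632315, minus strand: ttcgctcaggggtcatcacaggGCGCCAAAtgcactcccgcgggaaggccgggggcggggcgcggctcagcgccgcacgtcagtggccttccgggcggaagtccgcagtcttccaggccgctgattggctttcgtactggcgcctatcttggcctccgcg
Rfc3, chr5:151651209-151651368, minus strand: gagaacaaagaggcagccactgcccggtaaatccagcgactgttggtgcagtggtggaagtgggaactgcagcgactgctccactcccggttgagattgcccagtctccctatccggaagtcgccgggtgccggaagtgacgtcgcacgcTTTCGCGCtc

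In *Mcm6* and *Mcm5* matches overlap on opposite strands, and *Mcm6* carries a further match nearer to the start. The match in *Rfc3* begins 10 bases before the start, with a further one at the start itself, that in *Orc1* 27 bases before it, those in *Orc3* and *Gins3* 41 bases before it, and those in *Cdc6* and *Pola1* 138 bases before it. The other members with a match were *Cdt1*, *Lig1*, *Mcm3*, *Mcm7*, *Pold1* and *Uhrf1*. The CCAAT box, searched as CCAAT, was present in 23 of the 35 promoters (65.7%) and in 41.1% of all genes, and the CHR element, searched as TTTGAA or TTCGAA, in 7 (20.0%) and in 21.7%. A match is a stretch of letters and not a measured binding site.

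**Figure D1:**
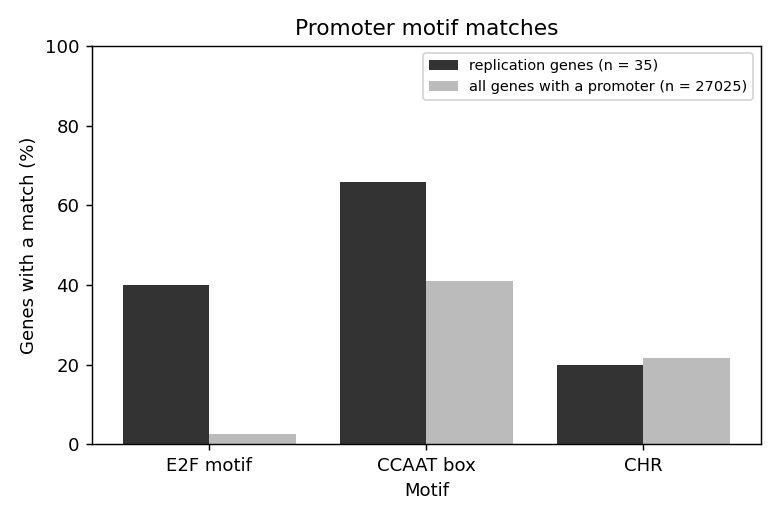
Share of genes with a match (%, y axis) to the E2F motif, the CCAAT box and the CHR element (x axis) in the RefSeq promoter window, for the 35 replication genes with a promoter (dark bars) and for all 27025 genes with a promoter (light bars). The E2F bars stand at 40.0% and 2.605%, the CCAAT bars at 65.7% and 41.1%, and the CHR bars at 20.0% and 21.7%.

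The DNA replication machinery was not expressed at one common level, and it did not differ in one direction between the populations. A gene was kept when its FPKM was at least 1 in at least 1 population, which 13436 genes were, and 38 of the 43 members passed. *Orc1*, *Mcm5*, *Mcm10*, *Prim2* and *Rrm2* lay below this level in both populations. Of the 38, 30 reached an FPKM of 1 in both populations, *Cdt1*, *Mcm3* and *Gins1* reached it only in Lgr5+ progenitors, and *Cdc6*, *Cdc45*, *Rfc4*, *Rfc5* and *Tk1* only in Lgr6+ progenitors. Of all 13436 kept genes, 712 reached it only in Lgr5+ and 1547 only in Lgr6+ progenitors. A member that was kept through 1 population had to be lower in the other, so the counts that follow are descriptions.

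Differences are given as the log2 change, Lgr6+ minus Lgr5+, on the log2(FPKM + 1) scale, which understates the ratio of low genes. At a 1.5-fold difference on this scale, 12 kept members were higher in Lgr6+ progenitors (31.6%), beside 28.5% of all kept genes, and 7 were higher in Lgr5+ progenitors (18.4%), beside 23.3% of all kept genes. Both shares are near those of the whole table. When both columns were scaled to the same sum of FPKM, which raised the median of all genes to 0.28, *Prim2* also passed the filter. The counts were then 20 and 5 of 39 members, beside 37.6% and 16.3% of all genes. Under quantile normalization they were 10 and 9 of 37, beside 24.7% and 26.5%. The median change of the kept members was 0.33, with quartiles of -0.45 and 0.79, and the median of all kept genes was 0.03, with quartiles of -0.54 and 0.71. The summed FPKM of the 43 genes was 428 in Lgr5+ and 491 in Lgr6+ progenitors.

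**Figure D2:**
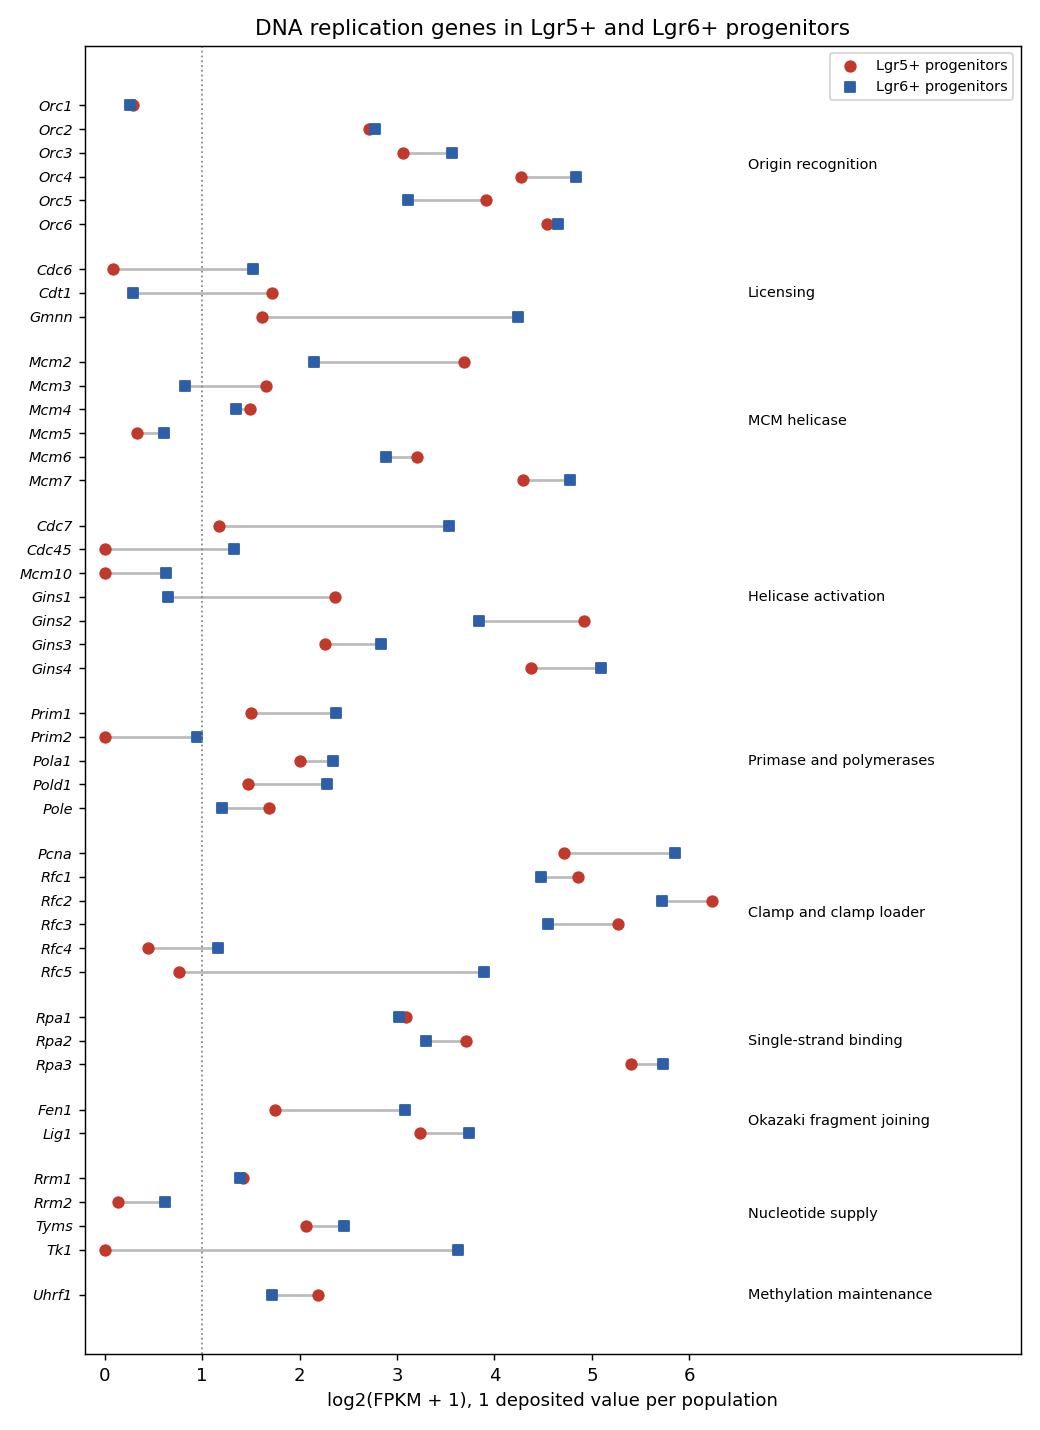
Expression of the 43 replication genes as log2(FPKM + 1) in Lgr5+ (red) and Lgr6+ (blue) progenitors, with genes grouped by role and 1 combined value per population and no replicate error. The dotted line marks an FPKM of 1. Genes of a shared complex lie far apart, such as *Mcm7* at FPKM 18.6 and 26.3 and *Mcm5* at 0.257 and 0.521.

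Of the origin recognition complex, which marks the sites where replication starts, *Orc5* differed past the threshold. Its FPKM was 14.1 in Lgr5+ and 7.64 in Lgr6+ progenitors (log2 change -0.80). *Orc6* (22.2 and 24.2) and *Orc4* (18.3 and 27.5) were the most highly expressed subunits, and both lay within the threshold. *Orc4*, at a log2 change of 0.56, was just short of it, and with columns scaled to the same sum *Orc3* and *Orc4* were past it. *Orc2* had values of 5.57 and 5.83 and *Orc3* of 7.35 and 10.8. *Orc1*, the subunit whose protein is turned over through the cell cycle, was the lowest at 0.224 and 0.195, so that the highest subunit exceeded the lowest 99.1-fold in Lgr5+ progenitors.

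The licensing factors differed in opposite directions. *Cdt1*, which brings the MCM helicase to origins, had an FPKM of 2.28 in Lgr5+ and 0.222 in Lgr6+ progenitors, and was thus 10.3-fold higher in Lgr5+ progenitors. *Gmnn*, which encodes the Cdt1 inhibitor geminin, had the opposite order, with 2.05 in Lgr5+ and 18.0 in Lgr6+ progenitors, an 8.75-fold difference. As background, Cdt1 protein is present in G1 and geminin from S phase to mitosis. *Cdc6*, the loading ATPase that acts beside Cdt1, was listed at 0.0582 in Lgr5+ and 1.87 in Lgr6+ progenitors (log2 change 1.44). The low value for *Cdc6* lies near the limit of depth in Lgr5+ progenitors, as described with the depth steps below.

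Within the MCM helicase, the ring that unwinds DNA, no subunit was higher in Lgr6+ progenitors past the threshold, except *Mcm7* with columns scaled to the same sum, and *Mcm2* and *Mcm3* were higher in Lgr5+ progenitors. *Mcm2* had an FPKM of 11.9 in Lgr5+ and 3.42 in Lgr6+ progenitors, a 3.47-fold difference. *Mcm3* had 2.15 and 0.767, a 2.80-fold difference. The 2 genes thus lay apart from *Mcm4* (1.82 and 1.55) and *Mcm6* (8.25 and 6.41), which differed by less than 1.5-fold, and from *Mcm7* (18.6 and 26.3), which had a change of 0.48 in the other direction. *Mcm5* was listed at 0.257 and 0.521. Although the subunits form a ring with equal parts, *Mcm7* exceeded *Mcm5* 72.1-fold in Lgr5+ and 50.5-fold in Lgr6+ progenitors.

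The activators of the helicase held some of the widest differences in both directions. *Cdc7*, the kinase that phosphorylates the loaded MCM ring, had an FPKM of 1.25 in Lgr5+ and 10.6 in Lgr6+ progenitors, an 8.50-fold difference. Its regulatory subunit *Dbf4*, taken from a list of other replication genes, was also higher in Lgr6+ progenitors, with 3.44 and 9.66. *Cdc45*, which binds the active helicase, was listed at 0 in Lgr5+ and at 1.51 in Lgr6+ progenitors, and *Mcm10*, which acts in the same step, at 0 and 0.546.

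The GINS complex is built from 4 subunits in equal parts, and these did not differ together. *Gins1* had an FPKM of 4.15 in Lgr5+ and 0.566 in Lgr6+ progenitors, 7.33-fold higher in Lgr5+ progenitors. *Gins2* had 29.3 and 13.4, 2.19-fold higher in Lgr5+ progenitors, in an interval shared with the expressed gene *Gse1*. *Gins4* was 1.68-fold higher in Lgr6+ progenitors, with 19.8 and 33.3. *Gins3*, at 3.81 and 6.16, had a log2 change of 0.57, just short of the threshold, and was past it with the same sum and with a pseudocount of 0.1 or none.

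**Figure D3:**
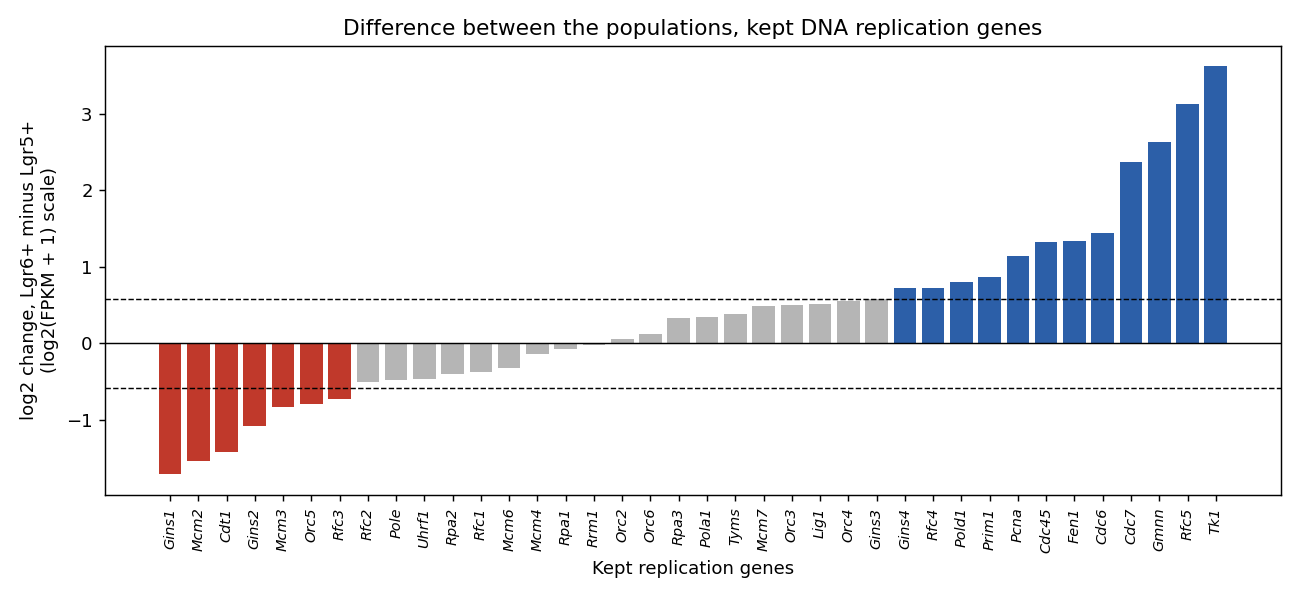
Log2 change, Lgr6+ minus Lgr5+ on the log2(FPKM + 1) scale (y axis), of the 38 kept replication genes (x axis, ordered by change), from 1 combined value per population. Red bars are the 7 genes at least 1.5-fold higher in Lgr5+ progenitors, blue bars the 12 higher in Lgr6+ progenitors, grey bars the 19 within the threshold drawn as dashed lines, and the ends are *Gins1* at -1.72 and *Tk1* at 3.62.

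Primase and the polymerase subunits were expressed at low levels. *Prim1*, the catalytic primase subunit, had an FPKM of 1.84 in Lgr5+ and 4.18 in Lgr6+ progenitors, a 2.27-fold difference. *Pold1*, the catalytic subunit of the lagging strand polymerase, had 1.78 and 3.86, a 2.17-fold difference. Both were higher in Lgr6+ progenitors, while *Pola1*, the catalytic subunit of the polymerase that extends primers, lay within the threshold at 3.02 and 4.09. *Pole*, the catalytic subunit of the leading strand polymerase, had 2.21 and 1.30, a log2 change of -0.48, and was past the threshold with a pseudocount of 0.1 or none and under quantile normalization. *Prim2*, the regulatory primase subunit, was listed at 0 and 0.933.

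The accessory subunits of the same polymerases, which are not among the 43 genes, were mostly at higher levels than the catalytic ones. *Pola2* had an FPKM of 28.0 in Lgr5+ and 26.4 in Lgr6+ progenitors, and *Pole4* 27.0 and 27.1. *Pole3* was the highest, at 78.9 and 49.8, and was higher in Lgr5+ progenitors past the threshold, whereas *Pole2* had 0.253 and 1.32. For polymerase delta, *Pold3* (13.3 and 4.61) was higher in Lgr5+ progenitors and *Pold4* (15.5 and 37.1) in Lgr6+ progenitors, and *Pold2* (5.70 and 3.92) lay within the threshold. The subunits of polymerase delta and of polymerase epsilon thus did not share a direction.

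*Pcna*, the sliding clamp that holds the polymerases on DNA and a common marker of S phase, had an FPKM of 25.3 in Lgr5+ and 57.0 in Lgr6+ progenitors, a 2.26-fold difference. It had the highest level among the members that were higher in Lgr6+ progenitors. The loader RFC places the clamp on DNA. Its large subunit *Rfc1* (27.9 and 21.3) and *Rfc2* (74.1 and 51.7) were higher in Lgr5+ progenitors by less than the threshold, and *Rfc3* (37.6 and 22.3) was past it with a log2 change of -0.73.

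The remaining RFC subunits had the opposite order. *Rfc5* had an FPKM of 0.697 in Lgr5+ and 13.8 in Lgr6+ progenitors (log2 change 3.13). *Rfc4* had 0.360 and 1.24, and its interval holds the abundant gene *Eif4a2*, so its reads may not be separable. In Lgr5+ progenitors *Rfc2* exceeded *Rfc4* 206-fold.

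RPA, which coats the unwound strands, had some of the smallest differences. The FPKM of *Rpa1* was 7.52 in Lgr5+ and 7.11 in Lgr6+ progenitors, that of *Rpa2* 12.03 and 8.83, and that of *Rpa3* 41.3 and 52.2. No RPA subunit passed the threshold, except *Rpa3* with columns scaled to the same sum. RPA also serves DNA repair, and so do *Fen1* and *Lig1*, which trim and seal the fragments of the lagging strand. *Fen1* was 3.16-fold higher in Lgr6+ progenitors, at 2.37 and 7.48, while *Lig1* lay within the threshold at 8.39 and 12.4 and past it with the same sum.

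Among the genes of nucleotide supply, the salvage enzyme *Tk1* stood apart from the others. *Tk1*, thymidine kinase, was listed at 0 in Lgr5+ and at 11.3 in Lgr6+ progenitors, the largest log2 change of all kept members at 3.62, in an interval shared with *Afmid*, which had an FPKM of 2.74 and 4.08. *Tyms*, which makes thymidylate anew, had values of 3.19 and 4.47 and was past the threshold only with the same sum. For ribonucleotide reductase, the large subunit *Rrm1* had 1.68 and 1.62, and the S phase subunit *Rrm2* was below the level filter at 0.0952 and 0.540. *Uhrf1* had 3.55 and 2.29, a log2 change of -0.47, and was past the threshold in the same 3 settings as *Pole*.

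The depth behind the low values was read from the steps in which FPKM multiplied by transcript length rises in genes with 1 annotated transcript, where the length was taken less 150 bases. A step was 0.132 FPKM kb in Lgr5+ and 0.0411 in Lgr6+ progenitors, a relative depth of 3.21 in favour of Lgr6+ progenitors. Whether a step is 1 fragment is not known. Among the members with 1 transcript, *Mcm2* amounted to 289 steps in Lgr5+ and 268 in Lgr6+ progenitors, *Mcm3* to 46.2 and 53.0, and *Cdt1* to 35.14 and 11.005. The last of these was the lowest number among them.

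Genes with several transcripts give only a range. For *Tk1*, a step in Lgr5+ progenitors would be an FPKM of 0.0565 to 0.260 across its annotated transcripts, for *Cdc45* 0.0663 to 0.194, and for *Prim2* 0.0728 to 0.224. A value of 0 is thus a listing at a depth that resolves about these levels, and no ratio of FPKM was computed for the genes listed at 0. Their log2 changes depend on the pseudocount. With a pseudocount of 0.1 in place of 1, that of *Tk1* was 6.84 in place of 3.62, and that of *Cdc45* 4.01 in place of 1.33. The value of *Cdc6* in Lgr5+ progenitors came to 2.05 steps with its longest transcript and that of *Rfc4* to 3.08, while *Rfc5* came to 19.0. The 4 members at 0 were all at 0 in Lgr5+ progenitors, the population with the larger step, and none was at 0 in Lgr6+ progenitors. Of all 23997 genes, 9439 were at 0 in Lgr5+ and 8215 in Lgr6+ progenitors.

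Low genes differed more between the populations across the whole table, and the replication genes followed the same division. Below a mean log2(FPKM + 1) of 3, 41.5% of 5671 kept genes were higher in Lgr6+ and 23.1% higher in Lgr5+ progenitors, and of the 22 members there 10 and 4 were. At or above that level the shares were 19.0% and 23.5% of 7765 genes, and of the 16 members 2 (*Gins4* and *Pcna*) were higher in Lgr6+ and 3 (*Orc5*, *Gins2* and *Rfc3*) in Lgr5+ progenitors. The median absolute change of the members was 0.85 below and 0.50 above that level, beside 0.89 and 0.50 for all kept genes. Spearman's rho between the levels of the populations was 0.66 across the 38 kept members and 0.85 across all 13436 kept genes, where the genes share the same libraries and are not independent.

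**Figure D4:**
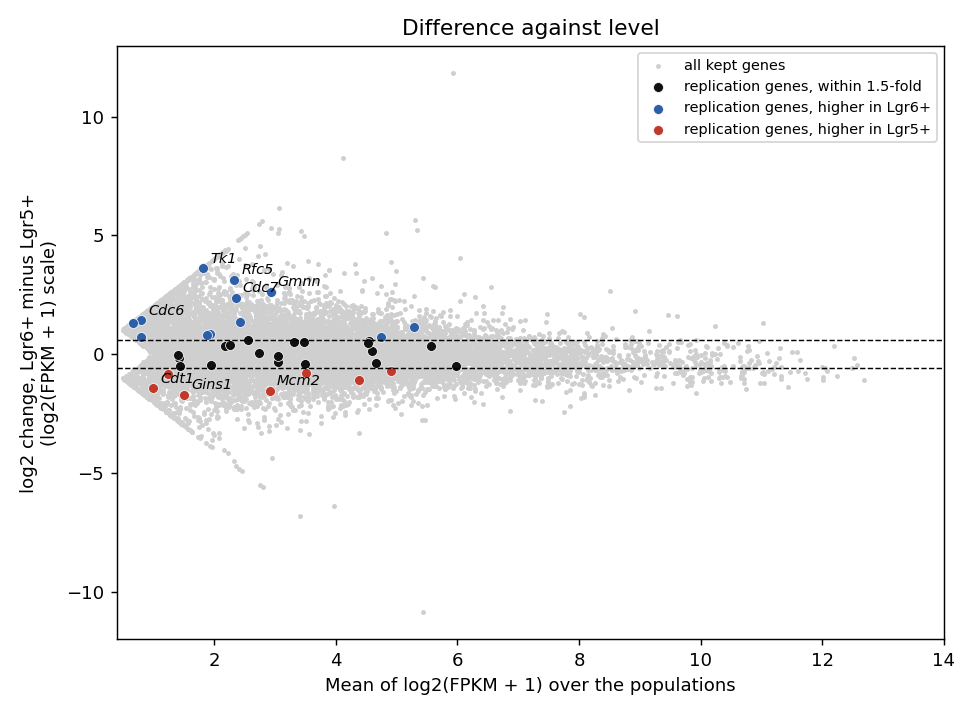
Log2 change, Lgr6+ minus Lgr5+ (y axis), against the mean log2(FPKM + 1) of both populations (x axis), for all kept genes (grey) and the kept replication genes (blue, at least 1.5-fold higher in Lgr6+ progenitors, red, higher in Lgr5+ progenitors, black, within the dashed lines). The spread of the grey points narrows from left to right, and of the 19 red and blue points 14 lie below a mean of 3.

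Of 42 other replication genes, taken as a list of helpers, chromatin assembly factors and nucleotide enzymes, 36 were kept. At 1.5-fold, 10 were higher in Lgr6+ (27.8%, beside 28.5% of all kept genes) and 12 higher in Lgr5+ progenitors (33.3%, beside 23.3%), with a median change of 0.01. The balance depended on the setting, as it did over all genes. The counts were 14 and 9 when columns were scaled to the same sum, beside 37.6% and 16.3% of all genes. They were 9 and 5 of 36 at a 2-fold threshold, beside 18.2% and 11.7%. *Chaf1b*, a subunit of the factor that places histones on new DNA, had the largest change, with an FPKM of 15.6 in Lgr5+ and 0.919 in Lgr6+ progenitors. It was followed in that direction by *Pold3* and by *Wdhd1* (1.75 and 0.119), which ties the helicase to the primase polymerase. In the other direction stood *Rnaseh2a* (2.86 and 13.7), the catalytic subunit of the enzyme that removes ribonucleotides from DNA, *Donson* (4.37 and 14.5), a replication fork factor, and *Atad5* (0.549 and 2.91), which unloads PCNA. *Clspn*, *Mcm8*, *Ticrr*, *Dscc1*, *Dtl* and *Recql4* were below the level filter.

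The intervals of 7 members overlapped an expressed gene, and whether the counting separated the strands is not stated. Besides *Gins2*, *Rfc4* and *Tk1*, these were *Orc3* (with *Akirin2*), *Orc4* (with *Acvr2a*), *Orc5* (with *Gm15421*) and *Lig1* (with *6330408A02Rik*). Their values are therefore less certain than those of the other members.

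E2F matches were present among members of both directions. Among members with a promoter, a match was present in 2 of the 10 that were higher in Lgr6+ progenitors (*Cdc6* and *Pold1*), in 3 of the 5 higher in Lgr5+ progenitors (*Cdt1*, *Mcm3* and *Rfc3*), in 7 of the 16 within the threshold, and in 2 of the 4 below the level filter. The members were also spread unevenly over the genome. Chromosome 5 held 9 of the 43 (20.9%), among them *Rfc1*, *Rfc2*, *Rfc3*, *Rfc5* and *Cdc7*, beside 5.67% of all genes of the table, and chromosome 8 held 6 (13.95%, beside 4.81%). On chromosome 5 the neighbours in name did not share a direction, with *Rfc5* higher in Lgr6+ and *Rfc3* higher in Lgr5+ progenitors.

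Markers of proliferation and of other cell types also differed between the populations. A marker kept through 1 population had to be lower in the other, and 28.5% and 23.3% of all kept genes were higher in Lgr6+ and Lgr5+ progenitors. Of 12 mitosis genes, whose products act after replication, 10 were kept, with 8 higher in Lgr6+ and 0 in Lgr5+ progenitors. Of these 8, *Aurkb*, *Cdk1*, *Mki67*, *Ccnb2* and *Kif11* were kept through Lgr6+ progenitors only. The summed FPKM of the 12 genes was 30.9 in Lgr5+ and 54.5 in Lgr6+ progenitors. *Cdk1*, the mitotic kinase, had 0.119 and 5.49, and *Mki67*, a marker of cycling cells, 0.626 and 3.41. The mitosis genes with the highest values in Lgr5+ progenitors, *Birc5* (16.8 and 11.2) and *Ccna2* (7.13 and 6.17), were lower in Lgr6+ progenitors, within the threshold. The summed FPKM of 9 macrophage markers was 3.88 in Lgr5+ and 237 in Lgr6+ progenitors, with *C1qb*, *C1qc*, *Csf1r*, *Ptprc* and *Tyrobp* listed at 0 in Lgr5+ progenitors. Of the 9, 7 were higher in Lgr6+ progenitors, and all of these but *Cd68* were kept through Lgr6+ progenitors only. The sums of 7 endothelial markers were 22.3 and 127, with 6 higher in Lgr6+ progenitors, 1 higher in Lgr5+ progenitors and *Kdr* at 0 in Lgr5+ progenitors, and those of 6 Schwann cell markers were 74.0 and 262, with 3 and 0.

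The 8 mesenchyme markers summed to 318 and 569, with 3 higher in Lgr6+ and 1 higher in Lgr5+ progenitors, and without *Otos* (5.60 and 248) the sums of the other 7 were 313 and 321. The 5 neuron markers summed to 105 and 116, with 1 higher in Lgr6+ and 2 higher in Lgr5+ progenitors, and without *Snap25* (7.63 and 53.4) the sums of the other 4 were 96.9 and 62.2. The 7 hair cell markers summed to 708 and 911, with 5 higher in Lgr6+ and 0 in Lgr5+ progenitors, and without *Otof* (41.6 and 171) the sums of the other 6 were 666 and 740. The 5 melanocyte markers summed to 6.58 and 19.1, with 2 higher in Lgr6+ and 0 in Lgr5+ progenitors. The 6 erythroid markers had the opposite order, at 630 and 108, with 4 higher in Lgr5+ progenitors. The 10 supporting cell markers were present in both, with sums of 3887 and 3545, and 2 were higher in Lgr6+ and 3 in Lgr5+ progenitors. *S100a1* made up most of both sums (2959 and 3177). Without *Hes5* (505 and 91.7) the sums of the other 9 were 3382 and 3453. *Sox2*, the progenitor and supporting cell factor, had 139.6 and 54.8. *Lgr5* itself was listed at 9.65 in Lgr5+ and at 24.99 in Lgr6+ progenitors, and *Lgr6* at 2.06 and 2.90. The part of these cell types and of the depth in the differences of the replication genes was not tested.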

How the data were processed

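EGFP+ Lgr5+ and Lgr6+ cells from postnatal cochleae were profiled by RNA-Seq. The authors used a SMART-Seq low-input kit for cDNA, Trimmomatic for trimming, TopHat for mapping and Cufflinks for FPKM. Versions and strand are not given in the sources used here. The methods name mm9, the submitters' processing notes mm10, and 98.8% of the gene intervals of 22500 matched symbols overlapped RefSeq genes of GRCm38.p6. The deposited FPKM is 1 value per population, normalized by the authors for length and mapped fragments. The deposited table also holds the log2 fold change, *p*-value and *q*-value of the authors' own comparison, which were not used.

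Samples were grouped by the labelled population. A gene was kept if either population had an FPKM of 1 or more, a pseudocount of 1 was added, and differences of at least 1.5-fold were counted. The members and lists were chosen with earlier results of these data known. All members were named, and of the other replication genes the 3 with the largest change in each direction and the partner subunits of the members' complexes. Promoters were taken from RefSeq GRCm38.p6. Total counts per sample are unknown, and relative depth came from the steps of low values.

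The alternatives were other pseudocounts, filters, scalings and a 2-fold threshold. Calculations ran in Python 3.11.15 with matplotlib 3.10.9, scipy 1.17.1, pandas 2.3.3 and numpy 2.4.6, and the calculations were tested on simulated data.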

Additional observations from a re-analysis of the deposited data

How the results depend on the processing

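Each value is a single combined number per population, so leaving out a replicate and any test between replicates were not possible. No paired analysis was possible because the table has 1 combined value for each population and no replicate columns. Of the 10 alternative settings, the filters, pseudocounts, 2-fold threshold and left-out members could not change the direction of a member. The scalings moved values by less than the threshold, so they could not do so for a member past it. Quantile normalization could, and no member past the threshold that had a value there turned to the other direction. Upper quartile scaling left the values nearly unchanged (median of the members 0.33). The median of the members stayed above 0 in the settings where it was computed. The median of all genes lay between -0.03 and 0.04 in these settings, except with the same sum, where it was 0.28. The main counts were 12 members higher in Lgr6+ and 7 higher in Lgr5+ progenitors. When 1 population had to reach an FPKM of 5 they were 7 and 4 of 24, beside 24.1% and 24.1% of all genes. When both had to reach 1 they were 7 and 4 of 30, beside 21.4% and 22.5%, and with a 2-fold threshold 8 and 4 of 38, beside 18.2% and 11.7%. With columns scaled to the same sum, 20 of 39 were higher in Lgr6+ progenitors, beside 37.6% of all genes. The median of the members, 0.33, was 0.22 when both populations had to reach an FPKM of 1, 0.13 under quantile normalization, 0.59 with the same sum, 0.23 without a pseudocount, and 0.12 without the 7 members that share an interval with an expressed gene, a setting chosen after seeing the data. Of the other replication genes, 6 and 7 were higher in Lgr6+ and Lgr5+ progenitors at a minimum FPKM of 5, beside 24.1% and 24.1% of all genes. At 2-fold they were 9 and 5, beside 18.2% and 11.7%. Of the 19 members past the threshold, 16 kept their call in every setting other than 2-fold that gave a value, while *Orc5* and *Rfc3* lost it with the same sum and *Pold1* under quantile normalization. Apart from the 2-fold threshold, only quantile normalization and the scalings could remove a call. The filters, the smaller pseudocounts and the left-out members could not. *Rfc4* had no value under quantile normalization. *Pole* and *Uhrf1* passed the threshold with a pseudocount of 0.1, with none and under quantile normalization. *Gins3* passed it with a pseudocount of 0.1, with none and with the same sum, and *Mcm7*, *Orc3*, *Orc4*, *Rpa3*, *Lig1* and *Tyms* with the same sum. *Prim2*, which passed the filter with the same sum, was also past the threshold there. The cause of these shifts was not tested. The unknown depth limits the members near an FPKM of 0.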
